A study of Mus musculus with 8 samples.

Results

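Tst encodes thiosulfate sulfurtransferase (rhodanese), a mitochondrial enzyme that moves sulfane sulfur between thiosulfate, glutathione persulfide and cyanide. It was examined together with 7 further genes of sulfide production and removal, namely Mpst, Ethe1, Suox, Cbs, Cth, Txn1 and Txn2, in RNA sequencing libraries of sorted Paneth cells. All 8 genes were found by symbol among the 53801 genes of the deposited count table. Tst was chosen because earlier results from these same libraries placed it higher in the knockouts, and the other members were proposed beside it with those results known, so the differences between the genotypes are given for all 8 as a description, without a test.

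The libraries come from 4 control mice (beta-cateninGOF; Mll1+/-) and 4 knockout mice (beta-cateninGOF; Mll1-/-), in which a Wnt-activating form of beta-catenin is shared by both genotypes and Mll1, the histone methyltransferase encoded by Kmt2a, is lost on one allele or on both. Recombination was driven by a tamoxifen-inducible Cre under the Lgr5 promoter, which acts in crypt stem cells and leaves a mosaic of recombined and unrecombined crypts. Mice aged 4 to 6 weeks were given 1 mg of tamoxifen daily for 3 d, and viable EpCAM+ Cd24+ cells were sorted 10 d after induction. The series design gives the beta-catenin allele for both genotypes, while the sample labels name only the Mll1 genotype and the methods paragraph on sorting leaves the allele out. The methods call the mice littermates, without saying which shared a litter. Both sexes were used, and cDNA was amplified over 16 PCR cycles before sequencing. The study asked how loss of Mll1 changes the identity of these Wnt-high secretory cells.

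Hydrogen sulfide is made in cells from cysteine and homocysteine by cystathionine beta-synthase (Cbs), cystathionine gamma-lyase (Cth) and mercaptopyruvate sulfurtransferase (Mpst), and it also reaches the gut epithelium from bacteria of the lumen. In mitochondria, sulfide quinone oxidoreductase (Sqor) oxidises it to a persulfide, the persulfide dioxygenase Ethe1 turns the persulfide into sulfite, and sulfite oxidase (Suox), a molybdenum enzyme, turns sulfite into sulfate. Tst links the persulfide and sulfite branches through thiosulfate. The thioredoxins Txn1 (cytosol) and Txn2 (mitochondria) reduce protein disulfides and release sulfide from the persulfide that Mpst carries.

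Tst and Mpst are neighbouring paralogs, and their active sites are shown because the results turn on how differently this pair was expressed. In mm10 (GRCm38), Tst (ENSMUSG00000044986) lies on the minus strand of chromosome 15 from 78399556 to 78405907 and Mpst (ENSMUSG00000071711) on the plus strand from 78406416 to 78414013, so that 508 bases separate their starts. The coding sequences, each 891 bases, are 69.1% identical over 867 aligned bases. The 45 coding bases around the catalytic cysteine are at chr15:78399861-78399905 (minus strand, exon 2 of 2) for Tst and chr15:78413504-78413548 (plus strand, exon 3 of 3) for Mpst, and capitals mark the cysteine codon, number 248 in each.
Tst: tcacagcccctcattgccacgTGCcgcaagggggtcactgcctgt
Mpst: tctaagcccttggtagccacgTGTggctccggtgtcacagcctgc
Of these 45 bases 31 are the same in both genes. The thioredoxin pair is shown in the same way, with capitals on the first cysteine codon of the redox-active site, codon 32 of Txn1 (chr4:57951809-57951853, minus strand, exon 2 of 5) and codon 90 of Txn2 (minus strand of chromosome 15, where the stretch is joined from exons within 77924639 to 77927708).
Txn1: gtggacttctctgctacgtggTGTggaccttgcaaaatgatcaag
Txn2: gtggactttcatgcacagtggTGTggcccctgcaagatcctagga
Of these bases 30 of 45 match, and the coding sequences of Txn1 and Txn2 are 65.2% identical over 305 aligned bases. All sequences are from the GENCODE M21 transcripts.

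Each library had between 13037832 and 14380240 counts on genes, and 76.4% to 88.1% of these fell on its top 50 genes. Knockout 3 stood apart: 19662 genes were detected in it, and 22623 to 26074 in each of the others, and its mitochondrial share was 2.04% where theirs was 3.26% to 8.78%. Kmt2a received 268 to 719 counts in the controls and 328 to 523 in the knockouts. Its log2 fold change, knockout against control, was −0.06 (SE 0.24), with −0.54 and 0.54 within library sets 1 and 2, described below. Because these counts sum all exons, they do not show whether targeted exons were deleted. By immunohistochemistry, the study reports that knockout crypt cells, Paneth cells included, lacked Mll1 when the cells were sorted. The sorting markers Epcam and Cd24a were at 210 to 299.8 and 804 to 1365 normalized CPM (CPM, counts scaled to a common library size after TMM correction), and the Paneth cell markers Lyz1 and Mmp7 at 16100 or more and 1489 or more in every library. Of the 8 Paneth markers listed, 4 had a positive and 4 a negative log2 fold change. Of 8 immune markers 6 had at most 3 counts in every library, the exceptions being Ptprc and Lyz2. With such sorted populations, fewer cells of a type and less RNA per cell cannot be told apart.

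Tst was higher in every knockout than in every control. Its counts were 71, 65, 88 and 86 in controls 1 to 4 and 207, 190, 111 and 147 in knockouts 1 to 4. Scaled to library size, Tst was at 4.45, 5.16, 7.90 and 6.79 normalized CPM in the controls and at 12.3, 10.9, 13.0 and 8.92 in the knockouts. The means were 6.07 ± 1.56 and 11.3 ± 1.81 (SD, n = 4 each), a log2 difference of 0.89 ± 0.25 (SE). The nearest libraries of the groups were control 3 and knockout 4. The libraries carry 2 separate runs of label numbers, called library sets, with 2 mice of each genotype in each set. Within set 1 the log2 fold change of Tst was 1.27 and within set 2 it was 0.59, and leaving out single libraries gave 0.77 to 1.04.

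Mpst, the closest relative of Tst, was barely detected beside it. Its counts were 2, 3, 2 and 4 in controls 1 to 4 and 3, 9, 3 and 3 in knockouts 1 to 4, so that 6 of 8 libraries had at most 3 counts. In normalized CPM, 3 counts correspond to 0.172 to 0.352 depending on the library, and no fold change is given for this gene, which did not pass the filter on low counts. Over all libraries Tst received 965 counts and Mpst 29, and per length of the counted gene model Tst was 62.3-fold above Mpst (95% exact interval 43.1 to 93.6, for counting error only). The map of the pair shows both genes at the same scale.

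**Figure D1:**
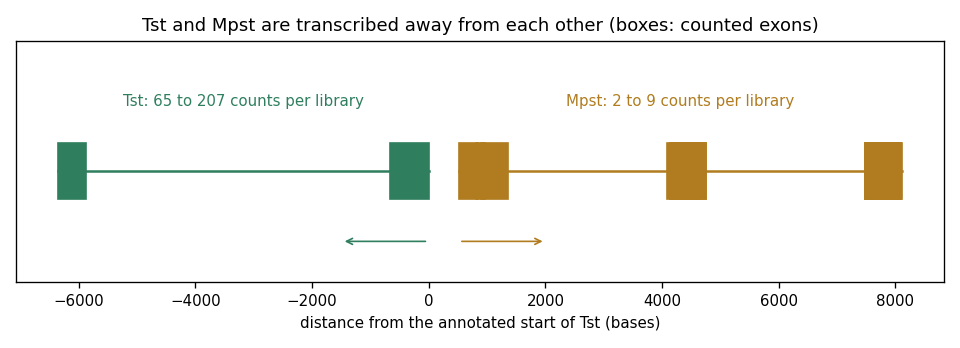
Map of Tst and Mpst, with distance in bases from the annotated start of Tst on the x axis, counted exons as boxes and arrows for the direction of transcription. The starts have 508 bases between them, and Tst received 65 to 207 counts per library where Mpst received 2 to 9.

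Of the enzymes on either side of sulfite, Ethe1 overlapped between the genotypes and Suox did not. Ethe1 (ENSMUSG00000064254, chromosome 7 from 24587543 to 24608925) was at 20.2, 26.0, 13.3 and 11.9 normalized CPM in controls 1 to 4 and at 19.7, 12.8, 9.51 and 14.7 in knockouts 1 to 4. The log2 fold change was −0.33 (SE 0.29), and single libraries moved it: it was −0.10 without control 2, −0.19 without knockout 3 and −0.52 without knockout 1. Within library set 1 it was −0.51, within set 2 −0.03, and with limma-voom, an alternative fit, −0.07. In the controls the libraries of set 1 were above those of set 2, and 6.67% of the exon bases of Ethe1 are shared with Zfp575 on the other strand.

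Suox (ENSMUSG00000049858, chromosome 10 from 128669894 to 128674073) was lower in every knockout than in every control. It was at 12.8, 9.76, 12.1 and 7.26 normalized CPM in controls 1 to 4 and at 6.71, 5.57, 0.352 and 4.97 in knockouts 1 to 4, with means of 10.5 ± 2.53 and 4.40 ± 2.79 (SD, n = 4 each). Knockout 3, with 3 counts on Suox against 82 to 113 in the other knockouts, was far below the rest. The log2 fold change was −1.22 (SE 0.53) with all libraries and −0.87 without knockout 3. Without that library the knockouts still lay below the controls. The value was −0.88 within library set 1 and −1.78 within set 2, which holds knockout 3.

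Cbs and Cth, which produce sulfide from cysteine and homocysteine, overlapped between the genotypes. Cbs (ENSMUSG00000024039, chromosome 17 from 31612623 to 31637199), which joins homocysteine to serine, was at 1.82, 3.73, 1.53 and 2.37 normalized CPM in controls 1 to 4 and at 3.68, 2.12, 8.34 and 4.31 in knockouts 1 to 4. Its groups overlapped, and the log2 difference was 0.95 ± 0.46 (SE) in all, 1.69 within set 2 and 0.07 within set 1. Without knockout 3 it was 0.51. Cth (ENSMUSG00000028179, chromosome 3 from 157894248 to 157925077), which releases cysteine from cystathionine, was at 10.4, 4.52, 7.0 and 18.5 in the controls and at 5.64, 6.60, 9.28 and 9.10 in the knockouts. Control 4 alone was above all other libraries for Cth, and the log2 difference of −0.41 ± 0.39 (SE) became 0.06 without it and −0.66 without control 2.

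In the main edgeR fit to all 8 libraries, the thioredoxins had the log2 fold changes closest to 0 among the 7 fitted members. That order was not kept in every setting: within library set 1 Cbs was closest, at 0.07, and within set 2 Ethe1, at −0.03. Txn1 (ENSMUSG00000028367, chromosome 4 from 57943373 to 57956411) was at 166 ± 20.1 normalized CPM across controls and 160 ± 54.4 across knockouts (SD, n = 4 each), a log2 difference of −0.05 ± 0.24 (SE). Knockout 3 was lowest, at 93.3 against 142 to 218 in the other knockouts, and the log2 fold change ranged from −0.23 without knockout 2 to 0.13 without knockout 3, with 0.15 within library set 1 and −0.33 within set 2. Txn1 has an annotated copy, Txn-ps1, whose gene model of 309 bases was assigned 114 to 505 counts per library, between 12.9% and 14.5% of the Txn1 count in every library, so the Txn1 level is uncertain where reads could be split between them. Txn2 (ENSMUSG00000005354, chromosome 15 from 77915047 to 77929006) was at 24.3 ± 4.54 across controls and 22.8 ± 2.91 across knockouts, a log2 difference of −0.09 ± 0.19 (SE), with −0.28 within set 1 and 0.14 within set 2, and from −0.17 without control 3 to 0.02 without control 2. It had the smallest spread of the 8 genes within the genotypes, 0.22 on the log2 scale. The largest was that of Suox, 1.20 with knockout 3 and 0.31 without it, where Cth had the largest at 0.68.

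**Figure D2:**
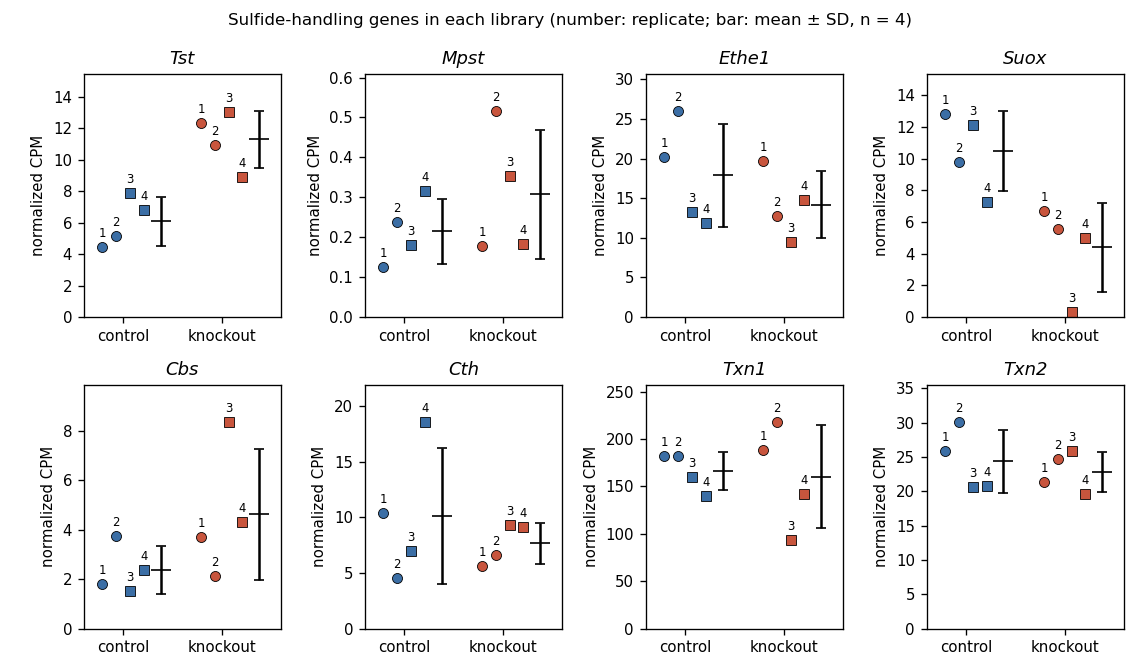
Normalized CPM (y axis, from 0) of the 8 genes in each library, with controls in blue and knockouts in red, circles for library set 1, squares for set 2, replicate numbers above the points and bars for the mean ± SD (n = 4). Tst separates the genotypes upwards and Suox downwards, while the other 6 overlap, and knockout 3 is the lowest library for Suox at 0.352.

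Of the 7 members that passed the filter, 2 had a positive and 5 a negative log2 fold change, with a median of −0.09, where all 13439 genes tested had a median of 0.0085. Complete separation of the genotypes was seen for 1 member in each direction, where 2.59% of all genes were separated upwards, 1.93% downwards and 4.52% in either direction. Since this comparison chose Tst, nothing is read from these counts.

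**Figure D3:**
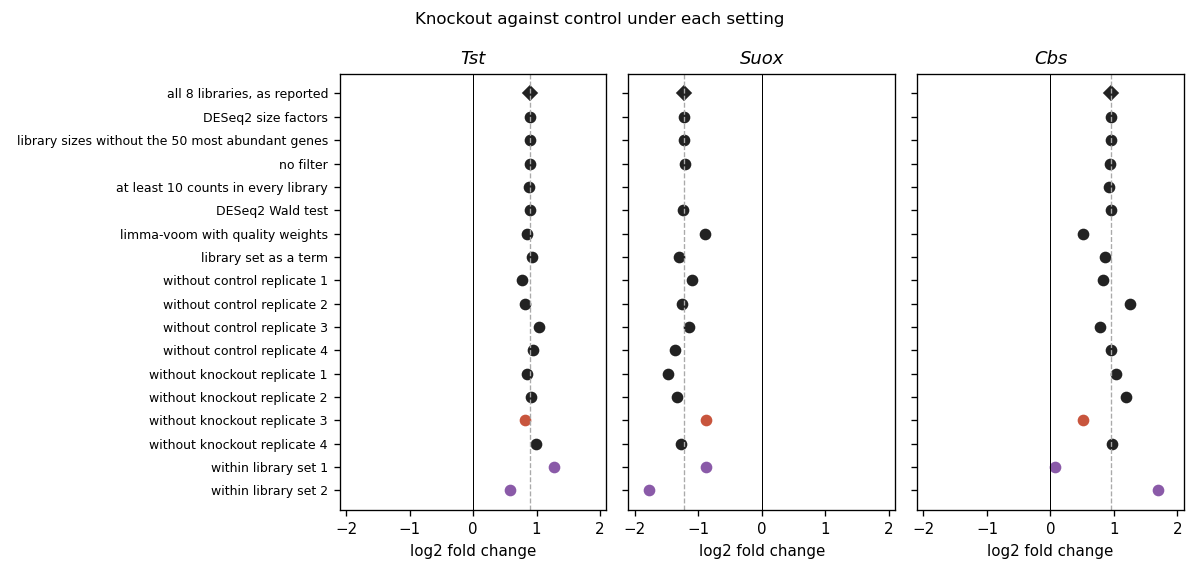
Log2 fold change of Tst, Suox and Cbs (x axis) under each setting (y axis), with the reported value as a diamond and dashed line, the fit without knockout 3 in red and the fits within each library set in purple. Tst stays between 0.59 and 1.27, Suox between −1.78 and −0.87, and Cbs spreads from 0.07 to 1.69.

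The order of the members' levels was tested over all 8 libraries, both genotypes together. The places of Tst and of Suox in it depend on the genotype: Tst ranked 4 of 8 in the controls, below Txn2, and 2 of 8 in the knockouts, below Txn1, and Suox ranked 5 in the controls and 6 in the knockouts, changing places with Cth. Levels were taken as normalized CPM per kb of the counted gene model. That model is 1144 bases for Tst and 3343 for Cbs, where GENCODE M21 annotates 3163 and 7485 exon bases. Neighbours in the order of mean log2 level were compared within libraries by an exact sign-flip permutation test (two-sided, 7 pairs, Benjamini-Hochberg adjustment). Txn1 came first at 155 ± 36.2 normalized CPM per kb (SD, n = 8), above 98.9% of the genes tested. It was followed by Ethe1 at 10.8 ± 3.69, Tst at 7.59 ± 2.80, Txn2 at 5.61 ± 0.86, Cth at 3.18 ± 1.57, Suox at 2.98 ± 1.64, Cbs at 1.04 ± 0.66 and Mpst at 0.122 ± 0.0599. Tst lay above 85.6% of the 13439 genes tested and Mpst, which is at the edge of detection, above 1.41%. Mpst did not pass the filter that set these genes, so a place near the bottom follows largely from the filter.

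Txn1 exceeded Ethe1 in 8 of 8 libraries by 3.86 ± 0.37 on the log2 scale, and Cbs exceeded Mpst in 8 of 8 (exact permutation test, adjusted p = 0.0273 for each). No size is given for the second pair, since the level of Mpst is close to the pseudocount of 0.1 normalized CPM per kb. The unadjusted p of both, 0.0078, is the smallest that 8 libraries allow. Txn2 exceeded Cth in 7 of 8 libraries by 0.90 ± 0.72 (exact permutation test, adjusted p = 0.0365). The other 4 neighbouring pairs did not pass: Ethe1 and Tst differed by 0.53 ± 0.92, Tst and Txn2 by 0.35 ± 0.67, Cth and Suox by 0.35 ± 1.61 and Suox and Cbs by 1.23 ± 2.07. With 7 libraries no unadjusted exact p can be below 0.0156. Without knockout 3, Suox came before Cth and 5 pairs passed, namely Txn1 and Ethe1, Ethe1 and Tst, Txn2 and Suox, Cth and Cbs, and Cbs and Mpst, and without control 4, 3 did, whereas leaving out any other library gave 0, with the smallest adjusted p at 0.0547.

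**Figure D4:**
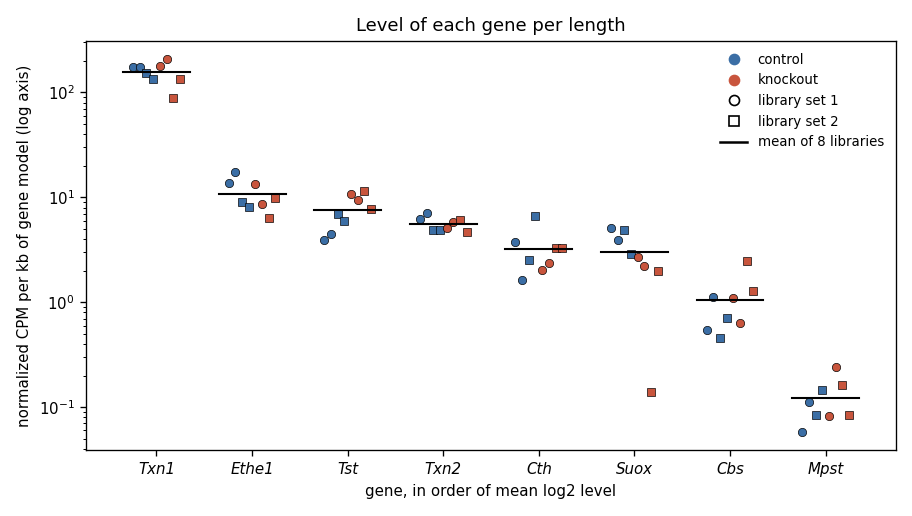
Normalized CPM per kb of gene model (y axis, logarithmic) of the 8 genes in order of mean log2 level, with controls in blue, knockouts in red, circles for library set 1, squares for set 2 and lines for the mean of 8 libraries. Txn1 lies at 155 and Mpst at 0.122, and the points of Ethe1, Tst and Txn2 overlap.

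The rest of the pathway was described with 67 further genes in 6 lists, of which 60 passed the filter. None of the 60 was called by edgeR's quasi-likelihood test at 10% false discovery rate, the limit in the study's methods, where 0.283% of all genes were (0.231% higher and 0.0521% lower). At an unadjusted p under 0.05 there were 7 higher and 4 lower, against 4.35% and 2.53% of all genes, 6.88% in all. Over the 60 genes the median log2 fold change was −0.02, with 28 above and 32 below 0, and it ranged from −0.07 to 0.01 with single libraries left out. DESeq2's Wald test called 1 of them and 1.42% of all genes, limma-voom 3 and 1.32%, and edgeR without a filter on low counts 2 and 1.03%. The edgeR fit without knockout 3 called 3 (Mocs2, Cdo1 and Prdx1), where it called 1.58% of all genes, and the fit within library set 1 called Mocs2, Slc26a2 and Prdx1, where it called 1.8%. The genotypes did not overlap for 1 gene that was higher (Tstd1) and 4 that were lower in the knockouts (Mocs2, Cdc25a, Slc26a2 and Msra), where 2.59% and 1.93% of all genes were so separated.

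Mocs2, a gene of the molybdopterin synthase that serves the cofactor of sulfite oxidase, was lower in every knockout. It was at 54.8, 67.2, 47.2 and 45.1 normalized CPM in controls 1 to 4 and at 26.3, 28.2, 36.9 and 30.1 in knockouts 1 to 4, giving a log2 fold change of −0.82 ± 0.18 (SE) and an adjusted p of 0.174 in edgeR. It passed 10% with DESeq2's Wald test (adjusted p = 0.0164), with limma-voom (adjusted p = 0.0256) and in edgeR's fit without knockout 3 (log2 fold change −0.93, adjusted p = 0.0235). It did not pass in edgeR with DESeq2 size factors (adjusted p = 0.205) or library set as a term (adjusted p = 0.18). Nor did it with at least 10 counts in every library (edgeR adjusted p = 0.13). With any other single library left out, edgeR's adjusted p was 0.255 to 0.503. Within library set 1 it was −1.16 and within set 2 −0.45. Of the other genes in the molybdenum cofactor list, which leaves out Mocs3, Gphn had a log2 difference of −0.17 ± 0.22 (SE) and Mocs1 −0.25 (SE 0.49), with overlapping groups. Leaving out single libraries moved Gphn between −0.24 and −0.09 and Mocs1 between −0.64 (without knockout 4) and −0.01 (without knockout 3).

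In the list of sulfide oxidation and rhodanese-family genes, 11 of 11 were tested, with a median log2 fold change of −0.03 that ranged from −0.06 to 0.24 with single libraries left out. Sqor, which takes the first step of sulfide oxidation, was at 5.66 ± 1.23 normalized CPM across controls and 6.00 ± 1.82 across knockouts (SD, n = 4 each), a log2 difference of 0.08 ± 0.30 (SE), which ranged from −0.09 without knockout 3 to 0.26 without knockout 4. Tstd3, a protein with a rhodanese domain, had 0.99 (SE 0.41, edgeR adjusted p = 0.668), Selenbp1, a methanethiol oxidase that releases sulfide, had −0.92 (SE 0.41, edgeR adjusted p = 0.708), and both overlapped. Tstd3 was at 0.48 with limma-voom, 0.24 within library set 1 and 1.48 within set 2, and Selenbp1 at −1.45 within set 1 and −0.26 within set 2. Of the exon bases of Tstd3 17.4% are shared with Ccnc on the other strand. Cdc25a, a cell cycle phosphatase with a rhodanese fold, was at 13.2 ± 1.09 across controls and 9.99 ± 1.48 across knockouts (log2 fold change −0.40), without overlap. Tstd1, named after its values were seen, was at 5.16 ± 0.46 and 7.68 ± 0.788 (log2 fold change 0.57), also without overlap, and shares 23.1% of its exon bases with Usf1. Coq9, of coenzyme Q synthesis, the electron acceptor of Sqor, had −0.16 (SE 0.33), −0.55 without knockout 3 and 0.08 without control 4.

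Genes of cysteine and methionine metabolism had a median log2 fold change of 0.01 over 15 tested of 19, from −0.08 to 0.12 with single libraries left out. Cdo1, cysteine dioxygenase, which oxidises cysteine to its sulfinate, was at 14.2 ± 1.38 normalized CPM across controls and 23.0 ± 6.44 across knockouts, giving a log2 fold change of 0.70 ± 0.23 (SE) and an adjusted p of 0.488 in edgeR. Knockout 3, at 13.4, lay within the controls for Cdo1, and without it the log2 fold change was 0.87 (adjusted p = 0.0195). Mat2a and Mat2b, which form the methionine adenosyltransferase of most tissues outside the liver, had 0.10 (SE 0.27) and 0.01 (SE 0.21), and Cars, the cysteinyl-tRNA synthetase, 0.40 (SE 0.37). Leaving out single libraries moved Mat2a between −0.05 and 0.37 and Mat2b between −0.18 and 0.14, and Mat2a was at 0.54 within library set 1 and −0.39 within set 2. Knockout 3 set the direction for Cars, which was at −0.04 without that library, at −0.16 with limma-voom and at 0.63 without control 4.

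Of the sulfate genes 7 of 9 were tested, 1 with a positive and 6 with a negative log2 fold change, with a median of −0.41, which was −0.06 without knockout 3, with 2 positive and 5 negative. Slc26a2, a sulfate transporter, was at 32.4 ± 8.67 normalized CPM across controls and 19.6 ± 5.77 across knockouts, without overlap (log2 fold change −0.72, SE 0.26, adjusted p = 0.569 from edgeR's test). Within library set 1 it was −0.88 (adjusted p = 0.0831) and within set 2 −0.49. Impad1, a phosphatase of the sulfation by-product in the Golgi, had 0.43 (SE 0.18), and Slc26a3, an anion exchanger of enterocytes, −0.47 (SE 0.57, −0.18 without knockout 3, −0.19 without knockout 1 and −1.02 without knockout 4), both with overlapping groups. Among 9 enterocyte markers, the 6 that passed the filter gave a median log2 fold change of −0.85, negative in 5, and the summed level of the 9 was 109 to 294 normalized CPM in the controls and 32.3 to 212 in the knockouts. The part of enterocyte RNA in these values was not tested.

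In the list of cystine uptake and glutathione genes, 5 of 10 tested had a positive and 5 a negative log2 fold change, with a median of −0.05 that ranged from −0.26 to 0.02 with single libraries left out. Slc7a11, the cystine carrier of the xc- exchanger, was at 2.56 ± 0.159 normalized CPM across controls and 5.80 ± 4.38 across knockouts, giving a log2 fold change of 1.16 ± 0.53 (SE) and an adjusted p of 0.723 in edgeR with overlapping groups. It was 0.61 without knockout 3, 1.49 without knockout 2 and 0.20 with limma-voom, and −0.02 within library set 1 against 1.80 within set 2. Its partner Slc3a2 had 0.10 (SE 0.30, from −0.19 without knockout 3 to 0.31 without control 4) and glutathione reductase, Gsr, 0.01 (SE 0.20, from −0.17 without knockout 2 to 0.11 without control 1). Slc1a1, a transporter of glutamate and cysteine, had −1.04 (SE 0.60), −1.64 within set 1 and −0.27 within set 2, and 31.9% of its exon bases lie on a gene of the other strand.

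The thioredoxin list was tested in full, 14 of 14, with a median of 0.07, from −0.02 to 0.15 with single libraries left out. Prdx1, a peroxiredoxin that Txn1 reduces, was at 156 ± 9.81 normalized CPM across controls and 240 ± 54.5 across knockouts, giving a log2 fold change of 0.62 ± 0.20 (SE) and an adjusted p of 0.468 in edgeR. Knockout 3 was at 159 for Prdx1, against 259 to 276 in the other knockouts, and without it the log2 fold change was 0.78 (adjusted p = 0.018). Prdx2 had 0.40 (SE 0.19). Rrm2, a subunit of the ribonucleotide reductase that thioredoxin supplies with electrons, had 1.39 (SE 0.51), with knockout 3 at 33.1 normalized CPM and the other knockouts at 5.46 to 8.43, and 0.45 without that library, 0.29 within set 1 and 2.04 within set 2. Msra, a methionine sulfoxide reductase, was at 9.59 ± 3.63 and 6.18 ± 1.69, without overlap (log2 fold change −0.63, SE 0.32). Control 2, at 15.0, was the highest library for Msra, and without it the value was −0.34, with −1.05 within set 1 and −0.17 within set 2.

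**Figure D5:**
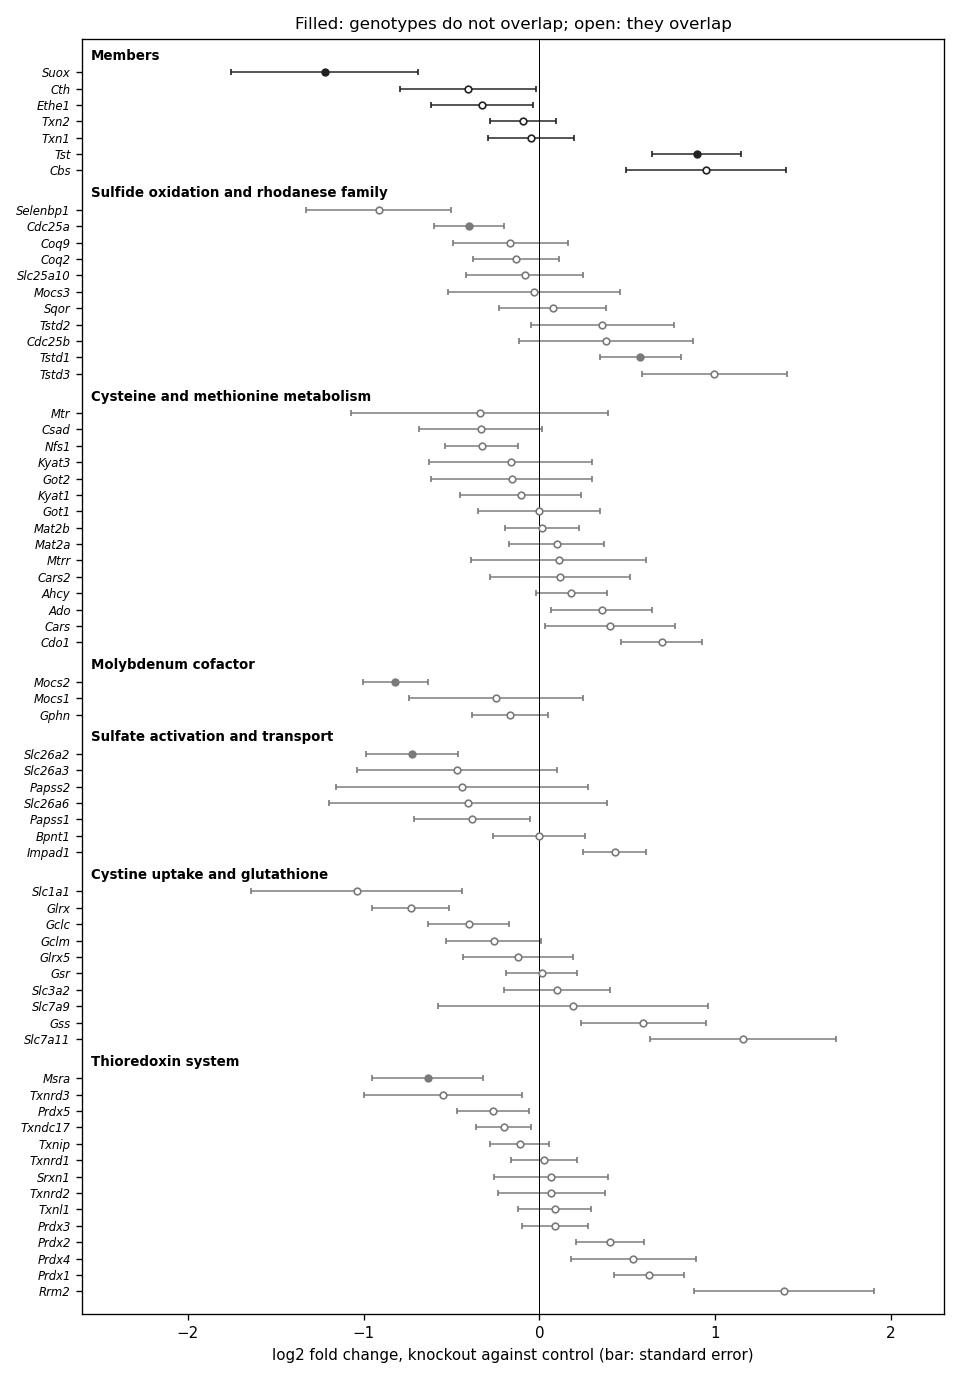
Log2 fold change, knockout against control (x axis, bars for the standard error), of the 7 fitted members and the 60 tested pathway genes by list, with filled points where the genotypes do not overlap and open points where they do. Suox, at −1.22, is the lowest point among the members, and Tst and Cbs lie at 0.89 and 0.95.

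The genes whose pattern was most like that of Tst were sought among 4329 genes with a mean of at least 10 normalized CPM, by Pearson's r of log2(normalized CPM + 1) over the 8 libraries. They were Myl12a (r = 0.95, Spearman's rho = 0.90), Hat1 (r = 0.93, rho = 0.93), Tiprl (r = 0.92, rho = 0.95), Ptn (r = 0.92, rho = 0.90) and Psmd1 (r = 0.91, rho = 0.90). These are the 5 highest of 4329 values of r, each over 8 libraries. How many genes would reach such values by chance was not tested. The 8 points of each correlation share the genotypes, and after the mean of each genotype was subtracted r was 0.77, 0.74, 0.93, 0.67 and 0.60. Of these 5, Tiprl had the highest r within the genotypes, and its groups overlapped, while those of the other 4 did not. Myl12a, a myosin light chain, averaged 32.5 ± 5.17 normalized CPM in control and 51.4 ± 3.14 in knockout mice.

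Among the members themselves, Tst had r = −0.70 with Suox (rho = −0.83) and −0.34 after the genotype means were subtracted. Suox and Cbs had r = −0.86 (rho = −0.76), and Suox and Txn1 r = 0.76 (rho = 0.26), where knockout 3 is the lowest library for Suox and Txn1 and the highest for Cbs. Tst and Mpst had r = 0.46 (rho = 0.40), with Mpst at 2 to 9 counts. Tst and Ethe1 had r = −0.58 (rho = −0.57).

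Levels of goblet cell markers were set beside Tst, because the sort can hold other secretory cells. The median log2 fold change over these 9 genes was 0.10, with 5 positive and 4 negative, and their summed level ranged from 9299 to 17791 normalized CPM across control and from 7899 to 19055 across knockout libraries. Spink4 made up most of that sum, at a mean of 9449 across control and 9265 across knockout libraries. The log2 fold changes of the 9 ran from −5.05 (Zg16, SE 2.02) to 0.76 (Clca1, SE 1.36), and the genotypes overlapped for each of them. Zg16 ranged from 1.51 to 303 normalized CPM among controls and from 0 to 9.36 among knockouts, and Clca1 from 0.317 to 71.2 and from 3.21 to 62.4. The part of goblet cell RNA in the Tst values was not tested.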

How the data were processed

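Genotype labels gave 4 control and 4 knockout libraries, whose replicate numbers only name them and pair no samples. One animal number occurs in the titles of both control 4 and knockout 4. The authors aligned reads with GSNAP to mm10, and featureCounts 1.6.3 counted uniquely mapped reads on Ensembl 92. The deposited values are raw counts without normalization, and the strand setting is not given in the sources used here. The 92 spike-in rows, with at most 11 counts in a library, were left out. Symbols matched 53620 of 53801 genes. No pair of libraries was within sampling noise (smallest chi-square per degree of freedom 10.8).

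In R 4.3.3, edgeR 4.0.16 (TMM, robust quasi-likelihood fit, Benjamini-Hochberg) was run on the 13439 genes passing filterByExpr (minimum count 10, minimum total 15), and standard errors were taken as the log2 fold change divided by the square root of F. The alternatives used DESeq2 1.42.0 and limma 3.58.1. Levels used a pseudocount of 0.1 normalized CPM per kb. PCR copies were counted separately, so counting intervals cover counting error only. Functions were tested on simulated data. Named were the members, Sqor, Kmt2a, pathway genes that were called, the 2 highest and the 2 most changed genes of each list, and the 5 genes most like Tst; Tstd1, Txn-ps1 and single marker genes were added after their values were seen. The members and lists were chosen with earlier results of these data known.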

Additional observations from a re-analysis of the deposited data

Results flagged for a closer look

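Among 72 groups of 4 libraries examined for the named genes, 9 held 1 library standing apart from the remaining 3 by Dixon's test at its 95% critical value, where chance flags about 1 group in 20, or about 4. On normalized CPM without logarithms, none of the 9 concerned Tst or another of the 8 members. Suox was still far lower in knockout 3, at 3 counts against 82 to 113 in the other knockouts. Its spread within the genotypes was 1.20 on the log2 scale with that library and 0.31 without it. Knockout 3 stood alone in 4 of the 9 groups. In normalized CPM, it was lowest for Cdo1, at 13.4 against 25.6 to 27.4 in the other knockouts, and for Prdx1, at 159 against 259 to 276. It was highest for Coq9, at 18.9 against 7.64 to 9.28, and for Rrm2, at 33.1 against 5.46 to 8.43. Control 4 was also highest for Coq9, at 17.9 against 9.84 to 10.9. Control 1 was lowest for Mat2b, at 23.3 against 29.8 to 30.2, and for Myl12a, at 24.8 against 34.1 to 35.7. Control 2 was highest for Msra, at 15.0 against 7.36 to 8.37, and knockout 4 was lowest for Myl12a, at 46.8 against 52.5 to 53.3.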

How the results depend on the processing

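The median log2 fold change of the members, −0.09, stayed below 0 in all 17 alternatives, was −0.28 within library set 1, a setting chosen after seeing the data, and ranged from −0.23 to −0.0067 with single libraries left out. Tst stayed above 0 in its 17 alternatives, Cbs above 0 in 17, Ethe1 below 0 in 17 and Suox below 0 in 16, since 10 counts in every library excludes it. Cth kept its sign in 16 of 17, Txn2 in 15 and Txn1 in 13. All settings reuse libraries of the comparison that chose the members, so the kept signs are no separate support. Some kept values were near 0, such as 0.07 for Cbs within library set 1 and −0.03 for Ethe1 within set 2. The number of other pathway genes called was 0, and it was 2 without a filter (Mocs2 and Rrm2), 1 with DESeq2's Wald test (Mocs2), 3 with limma-voom and 3 within library set 1, and 0 to 3 with single libraries left out, the 3 coming without knockout 3, a fit that called 1.58% of all genes where 0.283% were called with it. The number of neighbours in level that differed, 3, ranged from 0 to 5 with single libraries left out, and without division by length 4 differed, in the order Txn1, Txn2, Ethe1, Cth, Tst, Suox, Cbs, Mpst. No paired analysis was possible because the genotypes share fewer than 2 numbers in the labels and the litter of each mouse is not given in the sources used here. With library set as a term, the log2 fold change of Tst was 0.92 and 0 pathway genes were called. Mpst, at 2 to 9 counts, was too low for a fold change to be given, and the reason for its low counts was not tested.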
